A study of Mus musculus with 5 samples.

Results

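The regions described here are 123 high-coverage tiles of the mouse autosomes, chosen by their coverage in whole-genome bisulfite sequencing. The autosomes were divided into windows of 1 kb that did not overlap, and a tile was a member when it held at least 5 CpG dyads and its calls per dyad were at least 4 times the autosomal mean of the library in each of the 5 libraries. A CpG dyad is a CG with its partner CG on the other strand, a call is a read that reported a cytosine as methylated or unmethylated, and the calls of both strands were added. Of 2367464 autosomal tiles with a dyad, 1683000 held at least 5 dyads, and the 123 members were part of these. Coverage chose the members, so coverage is described without a test, whereas the methylation level (the share of calls that were methylated) played no part in the choice.

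The samples were AML blasts from the bone marrow of C57BL/6 mice, with 2 *Cebpa*-/p30 *Tet2*+/+ libraries (23 and 24) and 3 *Cebpa*-/p30 *Tet2*-/- libraries (5, 7 and 8). Both groups thus lacked one *Cebpa* allele and carried a second one that makes only p30, the short form of the myeloid transcription factor CEBPA, and they differed in *Tet2*. Per the study methods of the leukemia model, floxed alleles were deleted by Mx1-Cre, which is active in hematopoietic and other interferon-responsive cells, after Poly(I)-Poly(C) injection of irradiated C57BL/6J.SJL females that had received donor bone marrow, and DAPI-CD45.2+CD3-B220-Ter119- cells of moribund mice were sorted, a gate that does not select blasts by a blast marker. The labels do not number the mice, but per the study each library came from a mouse of its own. P-values here thus rest on the spread between single mice, and the test over all tiles also draws on other tiles. Per the study, several recipients shared a donor, and the labels do not give the donors. The methods give the age of the recipients at transplantation, not at sampling. Bisulfite calls carry no marker levels, and the cell type was not checked.

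TET2 is a dioxygenase that oxidises 5-methylcytosine to 5-hydroxymethylcytosine, a step towards removal of the methyl group, and bisulfite sequencing reads both forms as methylated. Reads pile up on a reference sequence when the genome holds more copies of it than the assembly does, and the level measured there is an average over those copies. Among the best known mouse sequences of this kind are the major satellite, a tandem repeat of pericentromeric heterochromatin that is normally densely methylated, and the ribosomal RNA genes, a repeated array in which active and silenced copies exist side by side and differ in methylation.

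Sequences of the main groups of members are printed first, from the plus strand of GRCm38/mm10 with each CG in capitals and all other bases in lower case. The first is one unit of the satellite at chr9:3037001-3037234, within a coding exon of the predicted gene *Gm10715*, shown because 34 members were alike to each other through copies of this unit.
Satellite unit: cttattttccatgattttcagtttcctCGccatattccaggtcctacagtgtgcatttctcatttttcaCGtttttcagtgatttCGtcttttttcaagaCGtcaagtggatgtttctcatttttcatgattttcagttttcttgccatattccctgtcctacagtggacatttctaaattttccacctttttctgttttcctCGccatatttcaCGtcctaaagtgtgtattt
The second is the window with the most CG within a ribosomal DNA tile, just after the end of the 18S gene, at chr17:39848415-39848664 in exons of *CT010467.1* and *Gm42418*, shown because ribosomal DNA held more CG per tile than any other group.
Ribosomal DNA: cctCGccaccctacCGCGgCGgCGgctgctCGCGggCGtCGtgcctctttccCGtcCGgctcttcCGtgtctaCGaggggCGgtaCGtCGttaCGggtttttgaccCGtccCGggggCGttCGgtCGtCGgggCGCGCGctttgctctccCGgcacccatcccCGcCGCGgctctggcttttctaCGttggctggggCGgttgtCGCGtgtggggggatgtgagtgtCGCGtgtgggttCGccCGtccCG
The next pair sets the start of the 18S-like stretch at chr6:3201001-3201200, in no annotated gene, beside the matching bases of the 18S gene at chr17:39846912-39847111, and 198 of 200 bases were equal.
18S-like on 6: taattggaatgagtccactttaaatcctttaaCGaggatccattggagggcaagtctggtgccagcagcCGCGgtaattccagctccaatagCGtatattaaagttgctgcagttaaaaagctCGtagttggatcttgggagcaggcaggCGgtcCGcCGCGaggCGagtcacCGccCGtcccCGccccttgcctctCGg
18S: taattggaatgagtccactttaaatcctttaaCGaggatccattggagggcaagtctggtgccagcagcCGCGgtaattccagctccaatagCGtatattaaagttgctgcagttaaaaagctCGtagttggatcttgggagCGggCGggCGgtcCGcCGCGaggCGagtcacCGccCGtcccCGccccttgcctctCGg
The blocks on chromosomes 11 and 1 are shown by the window with the most CG inside a member tile and outside annotated untranslated regions, at chr11:3193107-3193356 in introns of *Sfi1* and *Drg1*, and at chr1:88233238-88233487 across a coding exon of *Mroh2a*.
Chr11 block: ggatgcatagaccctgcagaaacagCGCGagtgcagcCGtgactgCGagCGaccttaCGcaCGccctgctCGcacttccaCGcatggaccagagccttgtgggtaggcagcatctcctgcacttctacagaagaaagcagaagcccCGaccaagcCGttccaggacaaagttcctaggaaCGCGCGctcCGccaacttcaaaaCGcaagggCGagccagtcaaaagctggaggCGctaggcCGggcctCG
Chr1 block: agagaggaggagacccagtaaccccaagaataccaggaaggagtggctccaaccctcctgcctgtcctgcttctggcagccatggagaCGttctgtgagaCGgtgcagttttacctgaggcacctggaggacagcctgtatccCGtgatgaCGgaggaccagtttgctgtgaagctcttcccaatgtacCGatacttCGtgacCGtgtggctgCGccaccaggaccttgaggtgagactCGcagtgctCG
The last pair comes from the member with the lowest level, at chr19:61199545-61199794, and from the other member with the clearest tandem repeat, at chr4:118548532-118548731, and both windows lie outside annotated genes.
Lowest level: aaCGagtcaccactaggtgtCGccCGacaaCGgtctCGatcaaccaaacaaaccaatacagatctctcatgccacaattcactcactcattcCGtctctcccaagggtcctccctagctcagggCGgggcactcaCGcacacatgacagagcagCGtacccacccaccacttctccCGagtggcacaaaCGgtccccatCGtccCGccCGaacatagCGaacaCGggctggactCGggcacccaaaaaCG
Tandem repeat on 4: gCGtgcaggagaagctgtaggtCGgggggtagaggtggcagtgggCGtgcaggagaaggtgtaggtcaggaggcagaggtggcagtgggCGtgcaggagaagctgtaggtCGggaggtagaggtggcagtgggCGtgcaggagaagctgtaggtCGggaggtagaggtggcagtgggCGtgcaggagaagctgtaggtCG

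Sequencing gave between 61122068 (library 8) and 107360283 (library 7) autosomal CpG calls per library, a mean of 2.999 to 5.27 calls per dyad, with 82.2% to 89.4% of dyads called. The members took 0.143% to 0.182% of the calls of a library. In a single library, 144 to 194 tiles reached 4 times its mean. In the other tiles with at least 5 dyads, the pooled level was 66.4% and 61.7% in the *Tet2*+/+ libraries and 70.2%, 73.8% and 68.3% in the *Tet2*-/- libraries, with library 24 the lowest and library 7 the highest. Library 8, the shallowest, stood apart in several groups of members, so each level is given library by library.

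The members lay at 36 loci when those within 5 kb of each other were joined, and 20 loci held a single member. Chromosome 1 held 37 members, chromosome 9 held 28 and chromosome 11 held 16. By sequence and place they fell into 34 satellite tiles, 6 ribosomal DNA tiles on chromosome 17, 36 tiles of a block on chromosome 1, 13 tiles of a block on chromosome 11, 4 tiles of a block on chromosome 13 and 30 others. A satellite tile was one alike to at least 30 other members.

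The members were richer in CpG than other tiles and lay closer to gaps of the assembly. The median member held 13 dyads, against 9 in the other tiles with at least 5 dyads, and the range was 5 to 126. Median G and C content was 44.8% against 43.3%. Of the members, 41.5% lay within 100 kb of an assembly gap, against 1.18% of the other tiles. An exon lay in 66.7% of the members and in 16.7% of the other tiles. It lay in 31 of 36 tiles of the chromosome 1 block and in 30 of 34 satellite tiles, the latter with many predicted genes. A stretch of at least 200 bases that was at least 95% identical to another place in the assembly was found in 50 of 123 members (40.7%), against 23 of 168 other tiles taken at even steps (13.7%). Not one of the 123 members held sequence like the mitochondrial genome.

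The name repeat thus fits the members unevenly. Such a match was found for 32 of 34 satellite tiles, 2 of 6 ribosomal DNA tiles, 15 of 30 others, 1 of 13 tiles of the chromosome 11 block, 0 of 4 tiles of the chromosome 13 block and 0 of 36 tiles of the chromosome 1 block. All 13 tiles of the chromosome 11 block and all 4 of the chromosome 13 block lay within 100 kb of a gap, whereas none of the 36 of the chromosome 1 block did. The median share of soft-masked (repeat) bases was 94.6% in the satellite tiles and 6.75% in the chromosome 1 block. The chromosome 1 block is therefore called here by its place, since its sequence does not show a repeat in the reference.

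Coverage of the members ran from just above the threshold to 55.9 times the library mean. Of the 8 members with the highest coverage (median over libraries), 7 were satellite tiles, on chromosomes 2, 9 and 14, and the other was chr15:75086001-75087000. At the satellite tile chr2:98667001-98668000, in *Gm10800*, calls per dyad were 47.0 and 49.5 times the mean in the *Tet2*+/+ libraries and 35.4, 33.3 and 55.9 times in libraries 5, 7 and 8. The adjoining tile chr2:98666001-98667000 stood at 47.0, 47.3, 35.3, 31.9 and 52.5 times. In both tiles libraries 5 and 7 were the lowest, as they were in the pooled satellite tiles, at 17.3, 16.2, 13.3, 10.7 and 16.3 times.

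**Figure D1:**
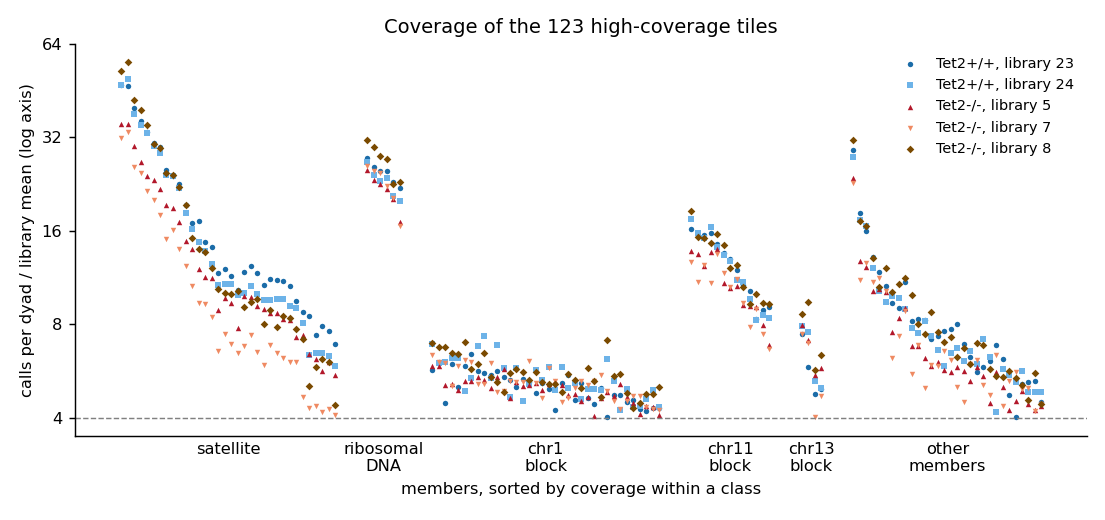
Calls per dyad over the library mean (log axis) for each of the 123 members, sorted within the 6 groups, with 1 point per library and a dashed line at the threshold of 4. Satellite tiles reach 55.9 times the mean with library 7 lowest in each of the 34, the ribosomal DNA tiles stay between 16.6 and 31.3 times, and the chromosome 1 block stays between 4.03 and 7.36 times.

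The fold over the mean of the highest tiles has a technical bound beside it. Reads that start at the same position had been removed as duplicates, so a cytosine can only hold a limited number of calls, and the most calls at any autosomal cytosine were 147 to 151 in every library although the mean coverage differed. Of the autosomal cytosines with at least 100 calls, the members held 90 of 91 in library 23, 74 of 74 in library 24, 122 of 124 in library 5, 105 of 106 in library 7 and 50 of 50 in library 8. Most of these were satellite cytosines (89, 74, 110, 79 and 50). The part of this bound in the order of the libraries was not tested.

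Members next to the threshold lay on chromosomes 1, 4 and 13. Just inside it were chr13:119614001-119615000 (lowest library at 4.02 times the mean), chr4:146480001-146481000 (4.03 times) and chr1:88300001-88301000 (4.03 times). Just outside it were chr1:88288001-88289000 and chr1:88246001-88247000 (both 3.97 times) and chr1:88258001-88259000 (3.92 times). The threshold therefore ran through the chromosome 1 block. High coverage was shared by nearly all dyads of the ribosomal DNA tiles, where 95.8% of single dyads were themselves at 4 times the mean in all libraries, and by 83.0% in the chromosome 11 block, 64.8% in the satellite tiles, 60.9% in the chromosome 13 block, 47.8% in the chromosome 1 block and 43.1% in the others.

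The satellite tiles were highly methylated in all 5 libraries. The pooled level over 656 dyads was 80.3% and 79.0% in the *Tet2*+/+ libraries and 79.5%, 81.0% and 78.8% in the *Tet2*-/- libraries. *Tet2*+/+ averaged 79.7% ± 0.895 (SD, n = 2) and *Tet2*-/- 79.8% ± 1.15 (SD, n = 3), so that *Tet2*-/- minus *Tet2*+/+ was 0.116 points, less than either SD. The 34 tiles were also alike among themselves, with mean levels from 74.8% to 84.4%, and their differences between genotypes ran from -2.98 to 2.39 points, 17 of them positive and 17 negative.

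By place, 24 of the satellite tiles lay at the start of chromosome 9, from chr9:3000001 to chr9:3039000, where the annotation holds the lincRNA gene *Gm26870* and several predicted genes such as *Gm10715*, *Gm10717*, *Gm10718*, *Gm10719* and *Gm10722*. Pooled, they stood at 79.2%, 78.1%, 78.4%, 79.4% and 77.7% in libraries 23, 24, 5, 7 and 8. The 4 satellite tiles of chromosome 2 (*Gm10800* and *Gm10801*) stood at 82.3%, 80.1%, 81.8%, 84.0% and 81.0%. The 5 tiles of chromosome 14 (chr14:19415001-19420000, *Gm21738*) stood at 79.8%, 78.9%, 78.8%, 80.8% and 77.5%. A single satellite tile lay elsewhere on chromosome 9, at chr9:35305001-35306000, with levels of 84.3%, 84.0%, 84.5%, 83.4% and 82.4%. In each of these places the groups overlapped, and the tiles of chromosome 2 stood above those of chromosome 14 and of the start of chromosome 9 in all 5 libraries.

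Levels differed by position within the 234-base unit. Of the 656 dyads, 600 could be placed on the unit, and 7 positions held at least 20 dyads each. These were the 6 CG of the printed unit and position 10, where the printed unit holds no CG. The lowest was position 70, at 75.4% and 72.6% in the *Tet2*+/+ libraries and 74.2%, 71.7% and 73.5% in the *Tet2*-/- libraries. The highest was position 101, at 86.7%, 85.6%, 85.7%, 89.1% and 85.2% in the same order. In every library position 70 was the lowest and position 101 the highest, and the genotype difference at the 7 positions stayed between -0.851 and 0.809 points.

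**Figure D2:**
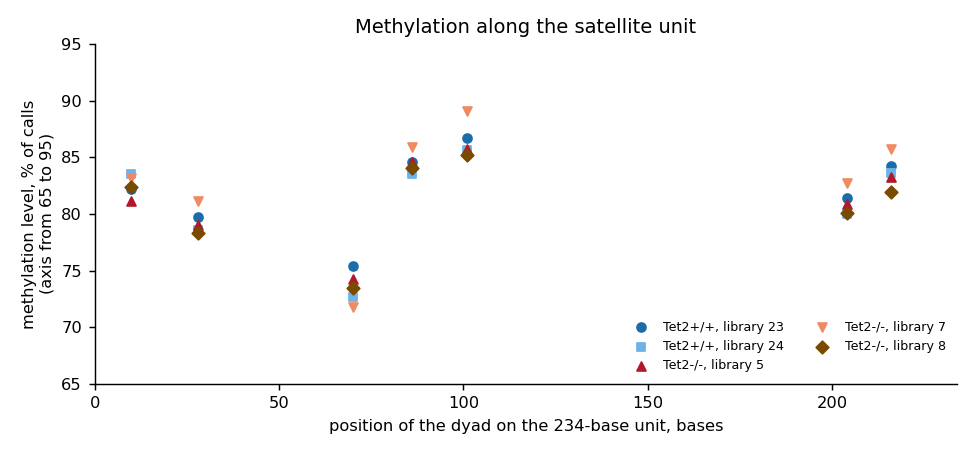
Methylation level (% of calls, axis from 65 to 95) at the 7 positions along the 234-base satellite unit that held at least 20 dyads, with 1 point per library. At position 10 the printed unit holds no CG. Position 70 lies between 71.7% and 75.4% and position 101 between 85.2% and 89.1%, while the genotypes overlap at every position.

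The ribosomal DNA tiles were the richest in CpG and low in methylation, with library 8 lowest in each. They lay next to each other at chr17:39843001-39849000 and held 81 to 126 dyads each, 599 in all, with 55.4% to 71.4% G and C. The annotation places there the lincRNA genes *Gm26917*, *Gm42418* and *AY036118* and the rRNA gene *CT010467.1*, and the 18S gene, which encodes the RNA of the small ribosomal subunit, spans chr17:39846354-39848202. Coverage was 24.8, 23.1, 21.9, 22.7 and 27.2 times the mean in libraries 23, 24, 5, 7 and 8. It was 0.703 to 0.961 times in the 20 kb before and 0.871 to 0.992 times in the 20 kb after.

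The pooled level of the ribosomal DNA was 31.2% and 29.7% in the *Tet2*+/+ libraries and 26.1%, 31.9% and 18.5% in the *Tet2*-/- libraries. Library 7 thus lay above both *Tet2*+/+ libraries, and library 8 lay far below all others. *Tet2*+/+ averaged 30.5% ± 1.04 (SD, n = 2) and *Tet2*-/- 25.5% ± 6.76 (SD, n = 3), so that *Tet2*-/- minus *Tet2*+/+ was -4.97 points (exact permutation test, two-sided, p = 0.5). With 2 against 3 libraries this test cannot give a p below 0.1. Library 8 was the lowest in 6 of 6 tiles.

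The low level of library 8 ran along the whole stretch. Before the 18S gene the levels were 31.7%, 29.3%, 25.9%, 31.6% and 18.6%, within it 31.4%, 33.3%, 26.6%, 32.3% and 19.8%, and after it 28.7%, 26.5%, 25.99%, 33.0% and 15.97%. Both strands showed it, with library 8 at 20.3% on the forward and 16.8% on the reverse strand. The calls behind the levels numbered 55791, 49100, 67771, 71719 and 48767 in libraries 23, 24, 5, 7 and 8. The part of depth in the levels was not tested. The printed window after the 18S gene stood at 28.0%, 24.5%, 25.5%, 36.0% and 15.3%, again with library 8 lowest. Without library 8 the pooled difference was -1.46 points, and over the 6 tiles it ran from -6.68 points at chr17:39843001-39844000, where the groups still did not overlap, to 0.867 points at chr17:39846001-39847000, against -9.10 to -2.98 points with it.

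**Figure D3:**
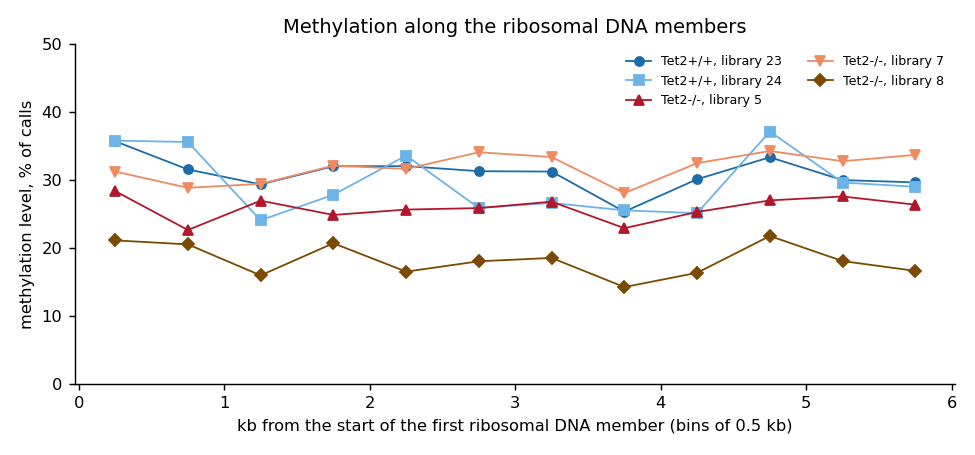
Methylation level (% of calls) in bins of 0.5 kb along the 6 ribosomal DNA tiles of chromosome 17, with 1 line per library. Library 8 is the lowest line in every bin, and the lines of library 7 and of the *Tet2*+/+ libraries cross.

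A fragment of the 18S gene on another chromosome was also a member, and it was close to the gene in level over its whole length but not in the printed bases. The tile chr6:3201001-3202000 held an 18S-like stretch of 670 aligned bases, 97.9% of them equal to the 18S gene. Its levels were 28.7%, 28.0%, 22.3%, 27.1% and 17.5% in libraries 23, 24, 5, 7 and 8, against 31.8%, 28.6%, 25.9%, 31.9% and 17.6% in the same stretch of the 18S gene. Coverage in the gene's own stretch was 7.90 to 10.5 times the mean, below the 17.1 to 22.9 times of the 18S gene as a whole, and coverage of the fragment was 4.58 to 7.05 times. In the first 200 bases of the pair, printed above, chromosome 6 stood at 27.3%, 64.3%, 54.7%, 30.8% and 40.7% over 22, 14, 53, 13 and 27 calls. The same bases of the 18S gene stood at 29.2%, 22.1%, 27.6%, 35.4% and 14.4% over 713, 584, 786, 792 and 563 calls. There the fragment lay above the gene in libraries 24, 5 and 8, and library 8 was not its lowest. Reads of the 2 places cannot be told apart where their bases are equal.

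The block on chromosome 1 was a stretch of raised coverage with no second match in the reference. Its 36 members lay between chr1:88212001 and chr1:88301000. They lay in *Ugt1a1*, which conjugates bilirubin in the liver (3 members, spread over most of the annotated gene), *Mroh2a*, which encodes a HEAT repeat protein (22 members, each with an exon), *Hjurp*, the chaperone that places the centromeric histone CENP-A (8 members, each with an exon), and *Trpm8*, the cold-sensing ion channel (4 members, no exon). In the 50 kb before the block, coverage was 0.778 to 0.980 times the mean. Over all dyads inside, it was 4.07 to 4.39 times, and 72 of the 78 tiles with at least 5 dyads were at 2 times the mean or more in all libraries. Coverage was uneven inside, and a bin at 58 kb from the start held 1.51 and 1.65 times the mean in the *Tet2*+/+ libraries and 1.90, 1.91 and 1.97 times in the *Tet2*-/- libraries. In the 10 kb after the last member it was still 3.51 to 3.63 times, and from 10 to 60 kb beyond 1.19 to 1.32 times, so that coverage rose within a bin at the start and declined over several kb at the far end. The raised coverage was present in all 5 libraries.

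**Figure D4:**
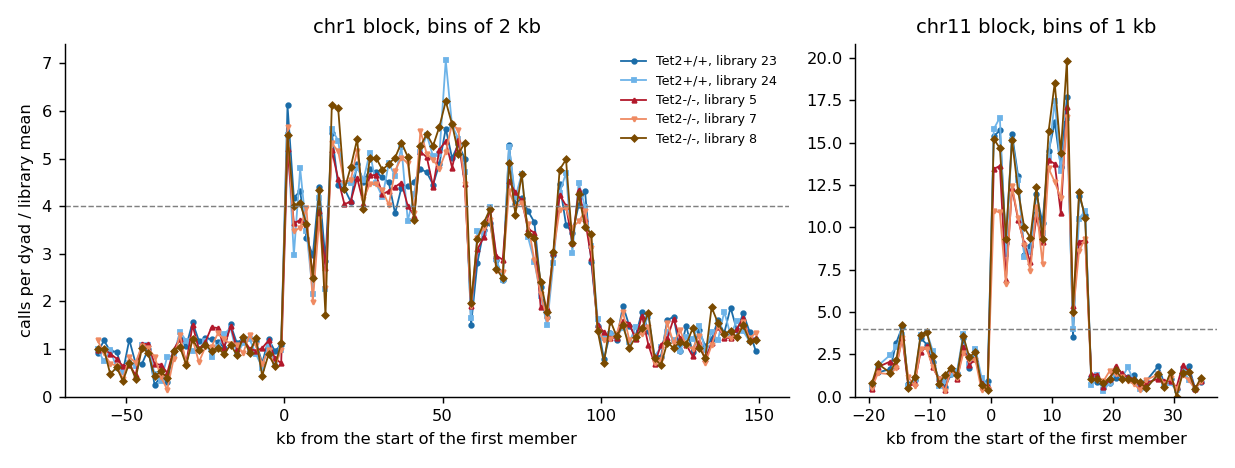
Calls per dyad over the library mean against the distance in kb from the start of the first member, for the chromosome 1 block (left, bins of 2 kb) and the chromosome 11 block (right, bins of 1 kb), with 1 line per library and a dashed line at the threshold of 4. In all 5 libraries the coverage steps up at the first member of each block, dips inside it and returns towards 1 after it, on chromosome 1 some 10 kb beyond the last member.

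Levels in the chromosome 1 block varied widely from tile to tile, and 34 of 36 members had the higher mean in *Tet2*-/-, as did 80.9% of all tested tiles. The pooled level was 68.2% and 66.5% in the *Tet2*+/+ libraries and 72.5%, 76.0% and 69.4% in the *Tet2*-/- libraries. *Tet2*+/+ averaged 67.4% ± 1.21 (SD, n = 2) and *Tet2*-/- 72.7% ± 3.29 (SD, n = 3), so that *Tet2*-/- minus *Tet2*+/+ was 5.29 points. The groups did not overlap, although library 8 lay close above library 23. In the other tiles with at least 5 dyads the groups did not overlap either, and the difference was 6.72 points. Over every dyad of the stretch, members or not, the levels were 61.2%, 59.0%, 65.8%, 69.5% and 64.1%, a difference of 6.37 points (exact permutation test, two-sided, p = 0.1, the smallest it can give). Over the 29 members at chr1:88227001-88270000 alone, the difference was 5.09 points (exact permutation test, two-sided, p = 0.2).

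Single members of the block ran from a mean level of 40.6% to 91.0%. The 3 members with the highest levels of all 123 were here. The tile chr1:88266001-88267000 in *Hjurp* stood at 90.1%, 91.1%, 91.4%, 92.4% and 90.1% in libraries 23, 24, 5, 7 and 8. The tile chr1:88265001-88266000, also in *Hjurp*, stood at 90.7%, 86.1%, 87.7%, 93.5% and 90.0%, and the groups overlapped in both. The tile chr1:88261001-88262000 at the end of *Mroh2a* stood at 86.7%, 80.5%, 91.1%, 95.5% and 89.3%, and its groups did not overlap.

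By gene, *Mroh2a* stood at 63.8% and 62.8% in *Tet2*+/+ and 70.2%, 72.4% and 66.1% in *Tet2*-/-, with no overlap. *Hjurp* stood at 82.2%, 79.6%, 82.1%, 87.0% and 82.4%, where libraries 5 and 23 overlapped. *Trpm8* stood at 48.4%, 46.5%, 54.4%, 63.1% and 50.5%, and *Ugt1a1* at 69.0%, 66.2%, 70.8%, 72.1% and 67.3%. The order *Hjurp* above *Ugt1a1* and *Mroh2a* above *Trpm8* was seen in every library.

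The block on chromosome 11 lay 84500 to 99500 bases from an assembly gap and was covered more deeply. Its 13 members, at chr11:3184001-3200000, lay in *Sfi1*, which encodes a centrosomal protein, and in *Drg1*, which encodes a GTP-binding protein, with the antisense gene *Gm12735* in 2 of them. Coverage was 13.0, 12.7, 11.7, 11.1 and 13.5 times the mean. The 20 kb before it were at 1.63 to 2.04 times and the 20 kb after it at 0.696 to 1.01 times. Pooled levels were 66.5% and 60.8% in the *Tet2*+/+ libraries and 69.2%, 71.1% and 59.8% in the *Tet2*-/- libraries, so the groups overlapped through library 8 (63.6% ± 4.01, SD, n = 2, and 66.7% ± 6.03, SD, n = 3; exact permutation test, two-sided, p = 0.6). Without library 8 they did not overlap, and the difference was 6.52 points against 3.08 points with it. The pooled levels of this block were not compared with any other library left out. Library 8 was the lowest in 3 of 13 members and library 24 in 10.

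The 3 members of the chromosome 11 block with library 8 lowest included its most CpG-rich tile. The tile chr11:3193001-3194000 held 59 of the 159 dyads, and library 8 stood at 62.7% against 77.6% and 72.3% in the *Tet2*+/+ libraries and 76.5% and 78.2% in libraries 5 and 7. The printed window of this tile showed the same order of libraries, at 79.97%, 74.0%, 79.0%, 81.2% and 63.1%. In the tile before it, chr11:3192001-3193000, library 8 stood at 42.96% against 46.9% to 58.9% in the others. By contrast the tile chr11:3191001-3192000, named after its values were seen, stood at 36.1% and 33.3% in *Tet2*+/+ and at 51.3%, 50% and 49.2% in *Tet2*-/-, without overlap.

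The 4 members of the chromosome 13 block (chr13:119613001-119617000, the first of them in *Gm48265* and the rest in no annotated gene) were covered at 5.75 to 7.44 times the mean. Their pooled levels were 76.5%, 73.5%, 79.8%, 81.2% and 75.2% (exact permutation test, two-sided, p = 0.3). One of them, chr13:119614001-119615000, had the largest difference of all members, at 62.3% and 64.7% in *Tet2*+/+ and 82.7%, 87.0% and 68.8% in *Tet2*-/-, a difference of 15.98 points (edgeR quasi-likelihood test, adjusted p = 0.263).

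The 30 other members fell on both sides of the middle of the scale, and library 8 was the lowest in most of the lower ones. Over all 30, *Tet2*-/- minus *Tet2*+/+ was -2.63 points, and 0.469 points without library 8. A split at a mean level of 50%, made after the levels were seen, left 17 lower and 13 higher members. The lower 17 stood at 35.8% and 35.3% in *Tet2*+/+ and 33.1%, 36.5% and 23.2% in *Tet2*-/-, and library 8 was the lowest in 11 of them. The higher 13 stood at 72.3%, 68.4%, 77.2%, 79.5% and 74.5%, with library 8 above both *Tet2*+/+ libraries. Since the levels of all 5 libraries, library 8 included, made the 2 sets, their difference in level is a description. So is the count of lower members with library 8 lowest. Of the lower 17, only the 18S-like tile on chromosome 6 was alike to a ribosomal DNA tile of chromosome 17, and the rest of the ribosomal repeat, with the 28S gene, was not compared here. Without library 8, *Tet2*-/- minus *Tet2*+/+ was -0.769 points in the lower 17 against -4.63 points with it.

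Among the lower members the lowest of all was chr19:61199001-61200000, with 30 dyads and no annotated gene, at 18.03%, 23.7%, 9.79%, 22.5% and 11.5%. Next came the 18S-like tile on chromosome 6 described above. Several others lay within protein-coding genes without touching the exons of those genes. The tile in *Cdk8*, a kinase of the Mediator complex, stood at 33.3%, 34.6%, 27.7%, 36.2% and 18.7%, and the tile shared by *Filip1l* and *Cmss1* at 43.2%, 40.2%, 38.5%, 41.3% and 24.6%. The tile in *Camk1d*, a calmodulin-dependent kinase, stood at 29.5%, 41.5%, 37.6%, 39.1% and 23.1%. In these 3 tiles library 8 was the lowest. The tile in *Kpna1*, an importin, which also overlaps an exon of *Gm15564*, stood at 42.6%, 34.2%, 34.5%, 22.1% and 32.8%, with library 7 lowest.

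The annotated microRNA gene *Mir6236* lay in the member with the most negative difference when all 5 libraries were used. This tile, chr9:110281001-110282000, stood at 45.0% and 52.1% in *Tet2*+/+ and 43.2%, 44.2% and 26.5% in *Tet2*-/-. The difference was -10.6 points (exact permutation test, two-sided, p = 0.4), and -4.81 points without library 8. The groups did not overlap, although library 7 lay close below library 23. The 2 members in *Lars2*, the mitochondrial leucyl-tRNA synthetase, at chr9:123461001-123463000, stood at 44.8%, 49.6%, 43.0%, 49.1% and 37.5% (exact permutation test, two-sided, p = 0.4). The 2 members at chr11:109011001-109013000, with no annotated gene, stood at 34.5%, 35.2%, 36.6%, 36.7% and 24.5% (exact permutation test, two-sided, p = 1). Library 8 was again the lowest in all 4 of these *Lars2* and chromosome 11 tiles.

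Some of the other members were alike to each other. A family of 4 tiles on chromosomes 10, 13, 15 and 18 stood at 69.6%, 66.3%, 76.1%, 77.0% and 74.4%. It included chr15:75086001-75087000, among the 8 most covered members at 22.8 to 31.4 times the mean, with levels of 72.5% and 67.8% in *Tet2*+/+ and 80.6%, 80.3% and 78.5% in *Tet2*-/-, without overlap. The locus of this tile and its neighbour (chr15:75085001-75087000) differed by 8.69 points (exact permutation test, two-sided, p = 0.1). Most of its calls came from chr15:75086001-75087000, with 990 of 1141 in library 23. The neighbour alone differed by 0.893 points, and its groups overlapped. Among the lower members, the *Camk1d* tile and chr3:5860001-5861000 shared 314 aligned bases, 95.2% equal, and the *Filip1l* tile shared 257 bases, 98.1% equal, with a tile of chromosome 18. Reads of alike pairs may not be told apart, so such pairs are not taken as independent of each other. How such reads were placed was not examined.

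The members of the family on chromosomes 10 and 13 shared 998 aligned bases, 90.2% of them equal, and those on chromosomes 15 and 18 shared 827 bases, 92.3% equal. On chromosome 4, chr4:146480001-146481000, one of the members next to the threshold, stood at 67.03% and 43.2% in *Tet2*+/+ and 70.9%, 70.8% and 55.7% in *Tet2*-/-, so that the *Tet2*+/+ libraries lay further apart than the group means. It shared 430 bases, 80.5% equal, with a member on chromosome 5.

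The tile in *Aida* at chr1:183299001-183300000 lay 94 bases from a gap and was covered at 12.3 to 16.6 times the mean. Its levels were 65.7% and 66.2% in *Tet2*+/+ and 73.2%, 74.1% and 71.6% in *Tet2*-/-, without overlap. In *Chl1*, a neural cell adhesion gene, a member with an exon shared 246 bases, 95.5% equal, with the satellite tile chr2:98666001-98667000. It was alike to only 2 members, both satellite tiles of chromosome 2, and to no other satellite tile. Its levels were 76.1%, 68.3%, 76.3%, 77.5% and 73.5%, and its groups overlapped. The tandem repeat tile chr4:118548001-118549000, with a period of 44 bases, held in its printed window levels of 79.0% and 67.9% in *Tet2*+/+ and 81.0%, 84.1% and 80.3% in *Tet2*-/-.

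The strands were compared within each group. In the satellite tiles the level of the forward minus that of the reverse strand was -2.51 to -0.0315 points, and in the chromosome 1 block -0.760 to 0.694 points. In the ribosomal DNA it was 1.89, 2.34, 4.12 and 3.51 points in libraries 23, 24, 5 and 8 and -0.710 points in library 7. It ran from -5.49 (library 23) to 0.680 points in the chromosome 13 block, from -2.59 to 1.93 points in the chromosome 11 block and from 0.195 to 2.80 points in the others. Over all members, the pooled level of *Tet2*-/- minus *Tet2*+/+ was -4.35 points on the forward and -3.19 points on the reverse strand.

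Across the whole set, no member passed the test between genotypes. The edgeR quasi-likelihood test on methylated and unmethylated calls, adjusted over 1014556 tiles with at least 20 calls in each library, called 0 of 123 members higher in *Tet2*-/-, where 2.39% of all tested tiles were called, and 0 of 123 lower, where 0.00966% were. All 123 members entered the test, and their fewest calls in a library were 86. At an unadjusted p under 0.05, this test gave 2 members (1.63%), chr1:88261001-88262000 and chr13:119614001-119615000 (adjusted p = 0.297 and 0.263), against 16.6% of all tested tiles. Over the alternatives the unadjusted count ran from 0 to 5 members, with 1 by edgeR's likelihood ratio test, 0 by limma, 3 with thinned calls and 5 by limma after subtraction of each library's median, where 10.5% of all tiles were under 0.05. Among the 261108 tiles with at least 50 calls in each library, a minimum that all 123 members met, 6.08% were called higher, and 0 of 123 members were. The spread assumed by the edgeR test followed a trend by number of calls. Its power at the most covered members was not tested, so a count of 0 does not show that their levels were equal.

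With all 5 libraries, a higher level in *Tet2*-/- was less frequent among the members than among all tested tiles, as a description. By the count higher without overlap the gap nearly closed without library 8. By the count lower without overlap and by the median difference it did not. The groups did not overlap with *Tet2*-/- higher in 23 of 123 members (18.7%), against 33.3% of all tested tiles, and with *Tet2*-/- lower in 6 members (4.88%), against 2.02%. Among tiles with at least 50 calls in each library, a minimum that all 123 members met, the shares were 40.8% higher and 1.58% lower. The counts with a library left out were not made at that minimum. Without library 8, *Tet2*-/- was higher without overlap in 58 members (47.2%), against 48.1% of all tested tiles. It was lower in 7 members (5.69%), against 3.07%. Without library 23 it was higher in 55 members (44.7%), against 57.8%, and lower in 14 (11.4%), against 6.48%. Without library 7 the members split into 24 higher (19.5%, against 35.6%) and 25 lower (20.3%, against 7.38%). Without library 24, 31 members were higher (25.2%, against 43.3% of all tested tiles) and 18 lower (14.6%, against 10.3%). Without library 5, 30 were higher (24.4%, against 43.3%) and 11 lower (8.94%, against 3.56%). The mean was higher in *Tet2*-/- in 81 of 123 members (65.9%), against 80.9% of all tested tiles. The median difference was 1.90 points over the members and 6.00 points over all tested tiles, and 2.29 and 7.41 points without library 8. Of the 23 members higher without overlap in all 5 libraries, 10 lay in the chromosome 1 block, 6 among the others, 4 in the chromosome 11 block, 2 in the satellite tiles and 1 in the chromosome 13 block. Of the 6 lower ones, 3 were others, 2 satellite tiles and 1 ribosomal DNA.

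The sum over calls leaned the other way. Pooled over all members, the levels were 53.2% and 51.9% in *Tet2*+/+ and 50.2%, 51.9% and 44.4% in *Tet2*-/-, a difference of -3.72 points with overlapping groups. The 6 ribosomal DNA tiles held 599 of 2466 dyads and 55791 of 134877 calls in library 23, and without them the difference was -0.471 points. Without library 8 it was -1.50 points. Counting each member once, the difference was 2.29 points.

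Library 8 was the lowest library in 44 of 123 members (35.8%), against 18.6% of all tested tiles. Library 24 was the lowest in 47 members (38.2%), against 46.7%, and library 7 was the highest in 68 (55.3%), against 54.6%. The 44 members were 14 of 34 satellite tiles, all 6 ribosomal DNA tiles, 8 of 36 tiles of the chromosome 1 block, 3 of 13 tiles of the chromosome 11 block and 13 of 30 others, of which 11 were among the 17 lower ones. The cause was not tested.

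**Figure D5:**
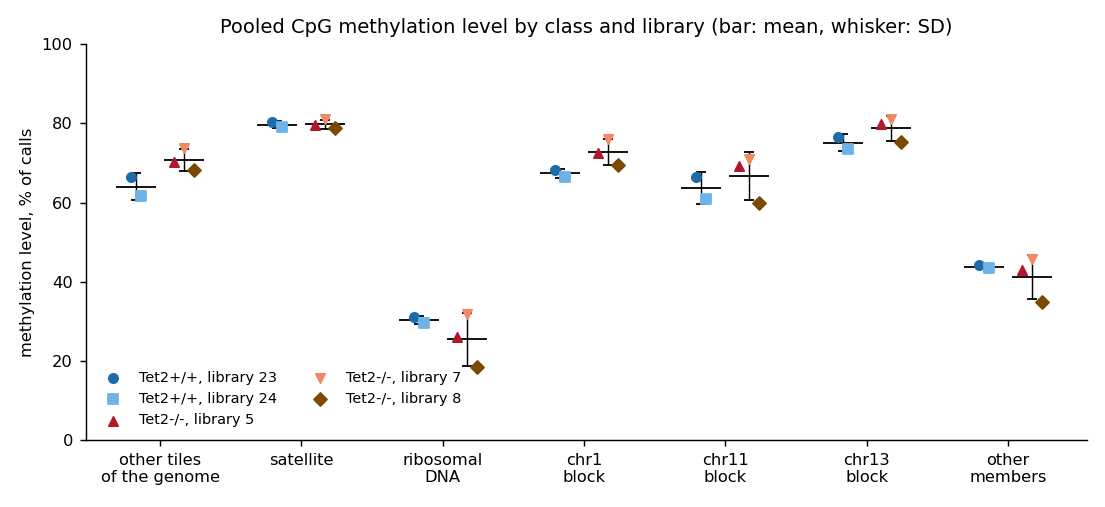
Pooled CpG methylation level (% of calls) in the other tiles of the genome and in the 6 groups of members, with 1 point per library, a bar at the group mean and whiskers of 1 SD (n = 2 *Tet2*+/+, n = 3 *Tet2*-/-). The satellite tiles lie between 78.8% and 81.0% in all libraries, and the ribosomal DNA between 18.5% and 31.9% with library 8 lowest. The chromosome 1 block shows no overlap between the groups, and neither do the other tiles of the genome.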

How the data were processed

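CpG methylation was measured by whole-genome bisulfite sequencing (Pico Methyl-Seq libraries, NextSeq 500) in 2 *Tet2*+/+ and 3 *Tet2*-/- libraries, grouped by the labels. Per the study methods and the labels, the authors trimmed reads with Trim Galore 0.4.3, checked them with FastQC 0.11.7, aligned them to GRCm38/mm10 with Bismark 0.19.1 (Bowtie 2, non-directional), removed duplicates by position, and deposited counts of methylated and unmethylated calls for each CpG cytosine and strand, not normalised and 1 file per library.

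From these counts, the strands of each dyad were added, tiles were counted from base 1 of each autosome, and the level was the weighted level (methylated calls over all calls). Matches were sought with BLAST 2.17.0 (at least 200 bases at 95% identity, or 80% between members) in the reference, and tile properties came from its annotation. Levels of all tiles with at least 5 dyads and 20 calls in each library were compared with edgeR 4.0.16 (quasi-likelihood fit of both counts of a tile with a coefficient per library, Benjamini-Hochberg over all tiles, threshold 0.05), and levels of named regions with exact permutation tests that were not adjusted. The edgeR likelihood ratio test, limma 3.58.1, other filters, thinned calls and each library left out were the alternatives. The fit was first run on simulated tiles, some of them raised in *Tet2*-/- by more than any member differed. That run does not describe its power at the members. The members and lists were chosen with earlier results of these data known. Regions named were the 12 loci with the most members, the 8 most covered members, the 3 lowest and 3 highest in level, those next to the threshold, and up to 10 with exons by coverage. The rule also named the 5 largest differences past the threshold in each direction, of which there were none. Coverage error covers counting only, and copy number was not measured.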

Additional observations from a re-analysis of the deposited data

How the results depend on the processing

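Limits: 2 against 3 libraries and removal of duplicates by position bound every value. Reads that cannot be told apart between copies bound the values of alike members, and the level of a repeated sequence is an average over copies. No paired analysis was possible because the groups share no replicate numbers. The number of members was 214 at a threshold of 3 times the mean, 57 at 6 times and 31 at 10 times, against 123 at 4 times. With each library left out it ran from 124 to 138, and it was 90 with the mean taken over called dyads, 87 with at least 10 dyads and 125 with tiles shifted. The difference in pooled level, -3.72 points, was 2.29 points with each member counted once, which gives the ribosomal DNA tiles the weight of any other tile. It ran from -5.27 to -1.50 points with each library left out (-1.50 without library 8), was -1.99 points with thinned calls and -0.877 points with at most 20 calls per dyad and strand. The median difference, 1.90 points, ran from 0.529 (without library 24) to 2.29 points with each library left out (0.744 without library 7), was 0.139 points in the members at 10 times the mean, 3.56 points without the satellite tiles and 0.573 points without the chromosome 1 block. Leaving out the ribosomal DNA, satellite or chromosome 1 members, counting each member once, and the counts without overlap with each library left out were chosen after seeing the data. So was leaving out library 8 in the pooled levels of single groups of members, where no other library was left out. No member passed in any of the 12 alternatives to the test. Over all tiles, the same alternatives called from 1 (thinned calls) to 42618 (likelihood ratio test) tiles higher and 0 to 411 lower. Of the 21 members named by the rule, 8 changed sign when a library was left out, and their differences then ran from -0.318 to 4.29 points (chr1:88265001), -0.648 to 2.16 (chr2:98662001), -0.327 to 2.06 (chr2:98666001), -1.24 to 22.5 (chr4:146480001), -2.11 to 0.272 (chr14:19415001), -0.809 to 1.31 (chr14:19417001), -6.43 to 0.867 (chr17:39846001) and -7.37 to 0.519 (chr17:39848001). At both chromosome 17 tiles and at chr14:19415001 the sign changed without library 8. The lowest adjusted p of a named member in any alternative was 0.144.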
